A study of Homo sapiens with 82 samples.

Results

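In HT29 cells, an established line of human colorectal adenocarcinoma, 98 of 51838 annotated genes were lower after 48 h with both liver X receptor (LXR) agonists, GW3965 and T0901317, and higher with rosiglitazone, an agonist of PPARG. They were chosen by their mean level in each group at 48 h, in CPM (a gene's read count divided by all reads counted in its library, times 1000000). A member had at most 0.67 times the DMSO mean with each LXR agonist, at least 1.5 times the DMSO mean with rosiglitazone, and at least 2 CPM in its highest group, a level that 15252 genes reached. Solute carriers, cytochromes P450, ABC transporters and the immediate early and growth factor families were left out by symbol, which removed 6 genes within the limits (FOS, FOSL1, JUN, KLF4, DUSP1 and ABCC6P2). The 48 h values that chose these genes are therefore given as a description without a test, and the tests use the separate 24 h libraries.

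Cells received the vehicle DMSO or 10 μM of GW3965, T0901317 or rosiglitazone for 24 or 48 h, with 4 replicates per group, so that RNA-seq gave 32 libraries with a DMSO group of its own at each time. The 3 drugs were compared with the same 4 DMSO libraries at each time, and all groups are a single cell line without a genetic change. The labels give the replicates as separate samples but not as separate cultures, so p-values measure the spread between these samples, which may be technical. Libraries held 21044798 to 51332656 counted reads at 24 h and 32312041 to 50938082 at 48 h.

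LXRs are nuclear receptors that bind oxysterols and turn on genes of sterol efflux and fatty acid synthesis. PPARG is a nuclear receptor for fatty acids and their derivatives, known best from fat cells and also abundant in the colon epithelium, where its agonists favour lipid storage and differentiation. Both pair with the retinoid X receptor on DNA, and each is known to raise some genes and to hold down others.

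The drugs acted on their known targets at 24 h. ABCA1 and ABCG1, which export sterols, rose with GW3965 by a log2 fold change of 4.61 and 4.67 and with T0901317 by 3.71 and 4.34. ANGPTL4, a PPAR target that inhibits lipoprotein lipase, rose with rosiglitazone by 5.02. PDK4 (pyruvate dehydrogenase kinase 4) rose with rosiglitazone by 2.58 but also with GW3965 by 1.47, and was at 0.26 with T0901317. With rosiglitazone ABCA1 was lower, at −0.95. At 48 h all 11 markers of colon epithelium reached 1 CPM, with a summed level of 16579 to 20639 CPM across libraries. The endothelial markers VWF and CDH5 and the 3 hepatocyte markers each summed to less than 1 CPM in every library, and the endothelial marker PECAM1 had no value. The 6 fibroblast markers summed to 5.69 to 10.1 CPM and the 3 adipocyte markers to 0.586 to 5.58 CPM. The 6 immune markers summed to 406 to 811 CPM, nearly all of it LYZ, whereas PTPRC and CD3E stayed under 1 CPM. In bulk RNA, fewer cells of one kind and less RNA per cell cannot be told apart.

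Of the 98 genes, 66 were protein-coding in RefSeq, and 32 were pseudogenes, non-coding genes or symbols without a match. By role they held 11 signals and cell surface proteins, 11 proteins of adhesion, junctions and the cytoskeleton, 8 regulators of transcription and chromatin, 6 signal adaptors, 7 enzymes of metabolism and redox balance, 2 proteins of ribosome biogenesis, and 11 copies of PKD1 or of the NPIP family. The other 42 had no role assigned. Levels were often low, with a DMSO mean under 5 CPM at 48 h in 33 members, whereas 42 reached 100 CPM in at least one group.

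Promoter windows were available for 58 of the 98 genes in RefSeq (GRCh38.p14, 250 bases before to 50 after the annotated start). The letters TGANTCA, with any base as N, are a loose form of the site of AP-1 (Fos and Jun dimers, whose own genes were left out by symbol). They read the same on both strands and lay in the windows of 9 of the 58 genes (15.5%), beside 9.37% of 27305 genes with a window. Both laminin chains among the members, LAMA3 and LAMB3, were in this group, with EMP1, OSGIN1, RAET1L, RCAN1, C6orf141 and 2 non-coding genes, listed in RefSeq as LUCAT1 and GCLC-AS1. The only match of C6orf141 was TGAATCA. The half-site AGGTCA, which LXR and PPAR bind with RXR as spaced repeats, was searched on both strands and lay in 2 of the 58 genes (3.45%) and in 16.5% of all genes. The direct repeats AGGTCANAGGTCA (of PPAR) and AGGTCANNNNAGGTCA (of LXR), which each contain that half-site, lay in 0 of the 58 and in 0.0293% and 0.0256% of all genes. Also searched were CACGTG (the E-box), in 3 of the 58 genes (5.17%) and 8.77% of all genes, and CCAAT, in 21 (36.2%) and 39.7%. A gene counted if any of its windows held a match. The 58 genes had 82 windows and the 27305 genes had 35116. A match shows only that the letters are there, and no match says nothing about the factor. The windows of 101 bases shown here carry the AP-1 letters beside members that the results describe, with the match in capitals, read 5′ to 3′ on the strand of the gene. They lie at chr18:23872848-23872948 (plus strand, LAMA3), chr1:209651388-209651488 (minus strand, LAMB3), chr12:13196504-13196604 (plus strand, EMP1), chr16:83953096-83953196 (plus strand, OSGIN1) and chr6:150025545-150025645 (minus strand, RAET1L), with the match starting 125, 67, 175, 97 and 66 bases before the start of the gene.
LAMA3: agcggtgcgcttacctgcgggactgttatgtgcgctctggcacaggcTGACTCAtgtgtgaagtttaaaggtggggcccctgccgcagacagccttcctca
LAMB3: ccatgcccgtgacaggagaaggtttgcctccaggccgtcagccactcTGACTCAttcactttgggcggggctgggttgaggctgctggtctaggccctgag
EMP1: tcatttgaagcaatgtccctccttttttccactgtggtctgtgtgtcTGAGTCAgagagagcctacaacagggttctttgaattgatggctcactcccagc
OSGIN1: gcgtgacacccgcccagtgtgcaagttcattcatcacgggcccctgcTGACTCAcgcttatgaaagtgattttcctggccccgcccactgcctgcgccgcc
RAET1L: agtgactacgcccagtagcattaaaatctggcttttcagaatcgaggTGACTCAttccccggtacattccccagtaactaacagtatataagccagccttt

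At 48 h the median member stood at 0.539 times the DMSO mean with GW3965 (range 0.104 to 0.67), 0.438 times with T0901317 (0.0596 to 0.662) and 1.83 times with rosiglitazone (1.51 to 39.3). Over the 15252 genes at the level limit the medians were 0.966, 1.03 and 0.882. The T0901317 mean was the lower of the 2 agonists in 67 of the 98. All 4 GW3965 libraries lay below all 4 DMSO libraries in 92 members, where 34.0% of all genes did, all 4 T0901317 libraries in 96 (23.6% of all genes), and all 4 rosiglitazone libraries lay above DMSO in 84 (10.2% of all genes). The choice of members fixes these counts in large part. In 18 members the change was at least 2-fold with every drug.

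**Figure D1:**
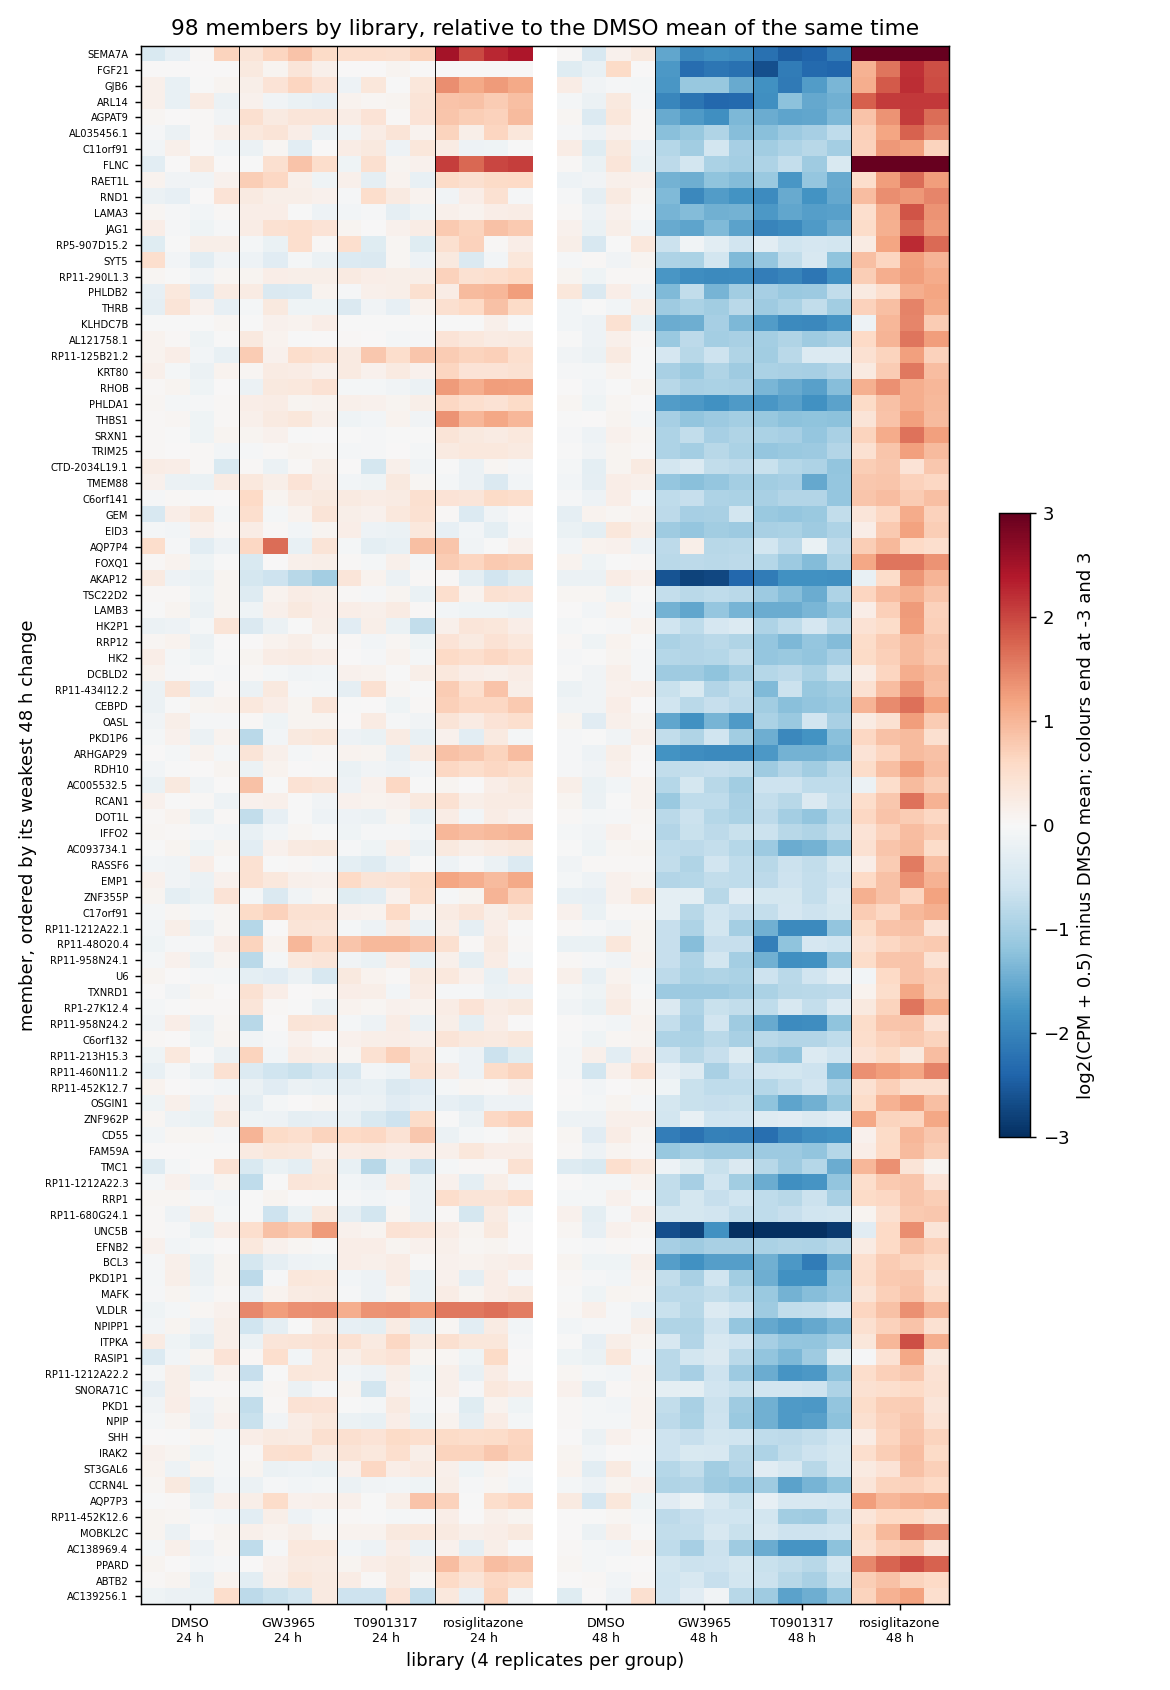
The map shows each member (one line per gene) in every library (one column each) as the log2 ratio to the mean of the DMSO libraries of the same time, with the 24 h libraries beside the 48 h libraries. At 48 h the LXR agonist columns are below DMSO and the rosiglitazone columns above it, as the choice of members requires, whereas at 24 h the LXR agonist columns are close to DMSO.

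Signals and cell surface proteins included the members with the widest separation. SEMA7A, a membrane-anchored semaphorin that binds integrins, was at 7.86, 5.35, 8.45 and 9.44 CPM in the 48 h DMSO libraries and at 2.25, 1.64, 1.77 and 1.69 CPM with GW3965. It was at 1.22, 0.956, 1.03 and 1.43 CPM with T0901317 and at 71.1, 126, 158 and 130 CPM with rosiglitazone. No 2 of these groups overlapped, and the ratios to DMSO were 0.236, 0.149 and 15.6. FGF21, a secreted hormone of the fasting and stress response, was at 2.23, 2.48, 4.72 and 2.99 CPM with DMSO and at 6.63, 10.2, 15.3 and 12.9 CPM with rosiglitazone. With GW3965 it was at 0.562, 0.219, 0.281 and 0.236 CPM and with T0901317 at 0.0601, 0.319, 0.192 and 0.169 CPM, so that the agonist libraries overlapped each other and lay below every DMSO library. JAG1, a ligand of Notch receptors, was at 133, 106, 137 and 114 CPM with DMSO, 42, 40.3, 48.5 and 39.6 CPM with GW3965, 30.5, 32, 37 and 42.1 CPM with T0901317, and 179, 257, 395 and 303 CPM with rosiglitazone. Here too both agonists lay below DMSO and rosiglitazone above it, with the agonists overlapping each other.

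The other surface members differed mainly in how far the LXR agonists lay below DMSO. CD55, which shields cells from complement, had a DMSO mean of 286 ± 44.4 CPM (SD, n = 4), beside 66.3 ± 4 for GW3965, 71.9 ± 9.37 for T0901317 and 450 ± 111 for rosiglitazone. UNC5B, a netrin receptor, was at 53.1, 43.2, 56.5 and 53.3 CPM with DMSO and at 7.84, 7.06, 14.3 and 5.1 CPM with GW3965. It was at 2.95, 2.52, 4.88 and 6.56 CPM with T0901317 and at 40.5, 77.4, 136 and 67.2 CPM with rosiglitazone. One rosiglitazone library of UNC5B thus lay below all the DMSO libraries although the mean was 1.55 times higher. SHH, the Hedgehog ligand, and VLDLR, a lipoprotein receptor, were among the mildest with the agonists, with ratios of 0.650 and 0.645 for GW3965 and 0.605 and 0.580 for T0901317.

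**Figure D2:**
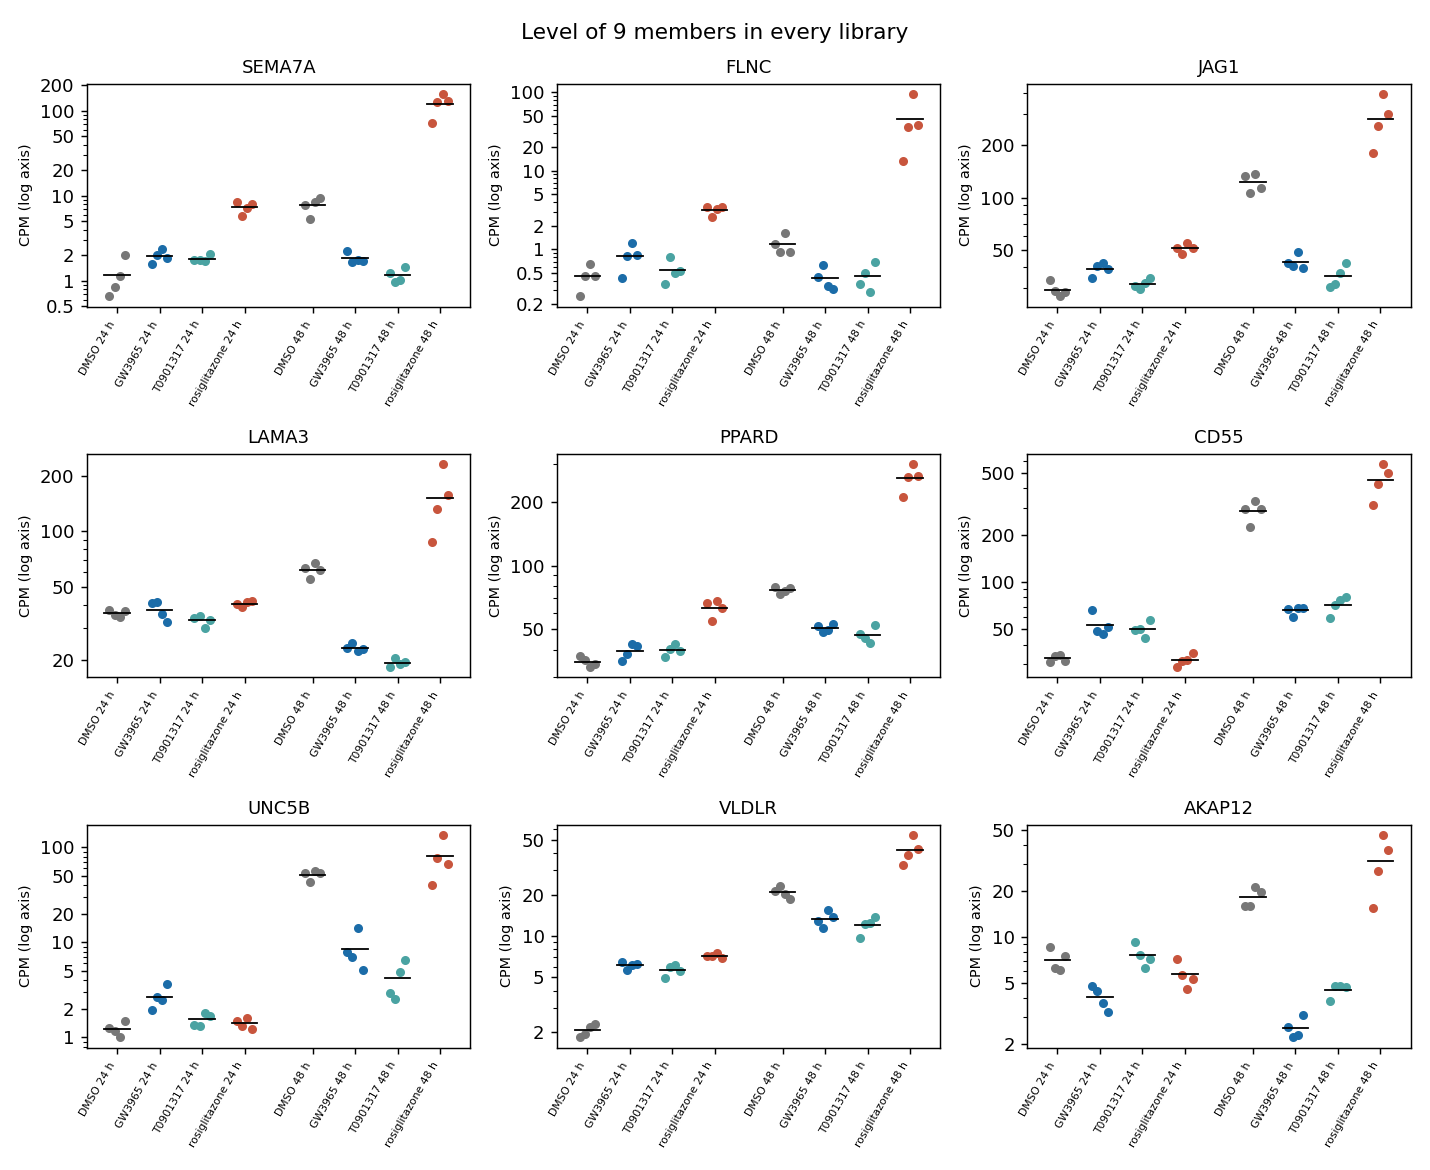
Each panel shows a member's CPM in every library at 24 h and 48 h, on a log axis, with one point per library and a bar at the group mean. For SEMA7A and JAG1 the rosiglitazone points lie above the DMSO points at both times, whereas the LXR agonist points lie below DMSO only at 48 h.

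Proteins of adhesion and the cytoskeleton followed the same pattern at 48 h. The laminin chains LAMA3 and LAMB3 belong to the laminins, which tie epithelial cells to the basement membrane. LAMA3 was at 63.4, 55.5, 67.3 and 61.8 CPM with DMSO, 23.2, 24.8, 22.4 and 22.9 CPM with GW3965, 18.4, 20.6, 19.2 and 19.6 CPM with T0901317, and 87.5, 132, 231 and 158 CPM with rosiglitazone. LAMB3 was at 511, 479, 543 and 498 CPM with DMSO, 191, 173, 227 and 194 CPM with GW3965, 180, 182, 196 and 221 CPM with T0901317, and 580, 833, 1238 and 821 CPM with rosiglitazone. For both chains the agonist libraries lay at less than 0.5 times the DMSO mean and every rosiglitazone library above DMSO, with rosiglitazone replicate 1 closest to DMSO and replicate 3 farthest from it. FLNC, a filamin that crosslinks actin, had the largest ratio of all members with rosiglitazone, 39.3, from a DMSO mean of 1.17 ± 0.33 CPM (SD, n = 4) to 13.4, 36.3, 95.9 and 38.2 CPM. Rosiglitazone replicate 3 was therefore more than 2 times the next library.

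RHOB, a small GTPase of actin and vesicle traffic, showed much less spread, with 146, 139, 146 and 154 CPM for DMSO, 81.2, 73.6, 75 and 73.9 CPM for GW3965, 55.8, 51.2, 46.5 and 59.7 CPM for T0901317, and 305, 378, 309 and 293 CPM for rosiglitazone. All 4 RHOB groups were separate. Other members that act on the cytoskeleton were RND1, which loosens actin, at 0.285, 0.282 and 2.48 times DMSO, and ARHGAP29, a GTPase-activating protein, at 0.272, 0.358 and 1.67 times. AKAP12, a scaffold of protein kinase A, had a DMSO mean of 18.2 ± 2.72 CPM (SD, n = 4), beside 2.56 ± 0.406 for GW3965, 4.52 ± 0.476 for T0901317 and 31.4 ± 13.3 for rosiglitazone, and its lowest rosiglitazone library, at 15.5 CPM, was below all the DMSO libraries.

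Regulators of transcription included 2 nuclear receptors. PPARD, the PPAR paralog of wide expression, was at 79.7, 73.5, 76.2 and 78 CPM with DMSO, 52.1, 48.7, 49.8 and 53.1 CPM with GW3965, 47.8, 45.6, 43.1 and 52.2 CPM with T0901317, and 211, 261, 301 and 264 CPM with rosiglitazone, which was 3.37 times the DMSO mean. THRB, the thyroid hormone receptor beta, was at 0.476, 0.485 and 2.20 times DMSO. CEBPD, a C/EBP factor of fat cell differentiation and inflammation, stood at 0.593, 0.437 and 2.56 times DMSO, and the forkhead factor FOXQ1 at 0.574, 0.490 and 2.72 times. DOT1L, the methylase of histone H3 lysine 79, BCL3, an atypical IκB protein, and MAFK, a small Maf partner of NRF2, were at 1.64, 1.55 and 1.55 times DMSO with rosiglitazone, and every one of their agonist libraries lay below DMSO.

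Metabolic members were AGPAT9 (now GPAT3), which starts the synthesis of glycerolipids, at 0.318, 0.341 and 2.94 times DMSO, HK2, which phosphorylates glucose, at 0.557, 0.459 and 1.70 times, and RDH10, which oxidises retinol. The redox enzymes SRXN1, which repairs peroxiredoxins, and TXNRD1, which reduces thioredoxin, stood at 2.30 and 1.60 times DMSO with rosiglitazone, and OSGIN1, an NRF2 target, at 1.97 times. Among the members without an assigned role, the Arf-like GTPase ARL14 was at 0.169, 0.312 and 4.25 times DMSO.

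The 24 h libraries, which the choice did not use, gave the test of each drug against its own DMSO group (edgeR quasi-likelihood test over 21781 genes, with a fold change cutoff of 1.5 and a Benjamini-Hochberg cutoff of 0.01 for a call). Of the 98 members 96 passed the filter on low counts, and FGF21 and KLHDC7B did not. With rosiglitazone 27 members rose, where 1.81% of all genes did, and 0 fell, where 3.13% of all genes did. No member was lower even at an unadjusted p under 0.05 in edgeR, DESeq2 called 28 higher and 0 lower, and 53 members were higher at an unadjusted p under 0.05. The median log2 fold change was 0.41 over the 96 and −0.02 over all genes tested, and 86 of the 96 were above 0, against 47.1% of all genes.

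By role, rosiglitazone raised 6 of 10 tested signals and surface proteins, 6 of 11 adhesion and cytoskeleton proteins, 4 of 8 transcription regulators, 2 of 6 adaptors, 3 of 7 enzymes, 0 of 11 PKD1 and NPIP copies and 6 of the 41 without a role. FLNC rose most, by a log2 fold change of 2.91 ± 0.29 (SE, edgeR adjusted p = 3.8e-07), from 0.252, 0.454, 0.651 and 0.454 CPM to 3.47, 2.6, 3.27 and 3.44 CPM. SEMA7A rose by 2.76 ± 0.24 (SE, edgeR adjusted p = 5.7e-08), from 0.654, 0.843, 1.13 and 2.01 CPM to 8.52, 5.74, 7.11 and 8.09 CPM. No rosiglitazone library of either gene overlapped DMSO. VLDLR (1.89), RHOB (1.31), THBS1 (1.24), EMP1 (1.19) and IFFO2 (1.08) followed among protein-coding members with a DMSO mean over 2 CPM. Both nuclear receptors rose, PPARD by 0.94 ± 0.09 (SE, edgeR adjusted p = 1.7e-07) and THRB by 0.81 ± 0.18 (SE, edgeR adjusted p = 0.0031), as did CEBPD (0.80) and FOXQ1 (0.83). The call for THRB was lost without DMSO replicate 1, without DMSO replicate 4 and without rosiglitazone replicate 3. Of the other calls that were checked gene by gene, RAET1L (12 of the 16 fits without 1 library), PHLDB2 (5), RP11-125B21.2 (2) and ABTB2 (1, without DMSO replicate 3) were also lost. Not every called member was checked in this way, and leaving out each library in turn gave 22 to 28 members higher with rosiglitazone.

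Other members that were high with rosiglitazone at 48 h were not called at 24 h. LAMB3 had a log2 fold change of −0.04 ± 0.10 (SE, edgeR adjusted p = 0.84), with 167, 180, 151 and 180 CPM for DMSO and 161, 154, 156 and 150 CPM for rosiglitazone. LAMA3 was at 0.26 ± 0.07 (SE, edgeR adjusted p = 0.0093), under the fold change cutoff. RND1 (0.24), TXNRD1 (−0.01), OSGIN1 (−0.13), CD55 (0.06), UNC5B (0.30) and DOT1L (0.22) likewise stayed under it, all with an edgeR adjusted p over 0.01. FGF21 had no read in any 24 h DMSO or rosiglitazone library, and 3 reads would be 0.0973 CPM in the shallowest DMSO library.

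**Figure D3:**
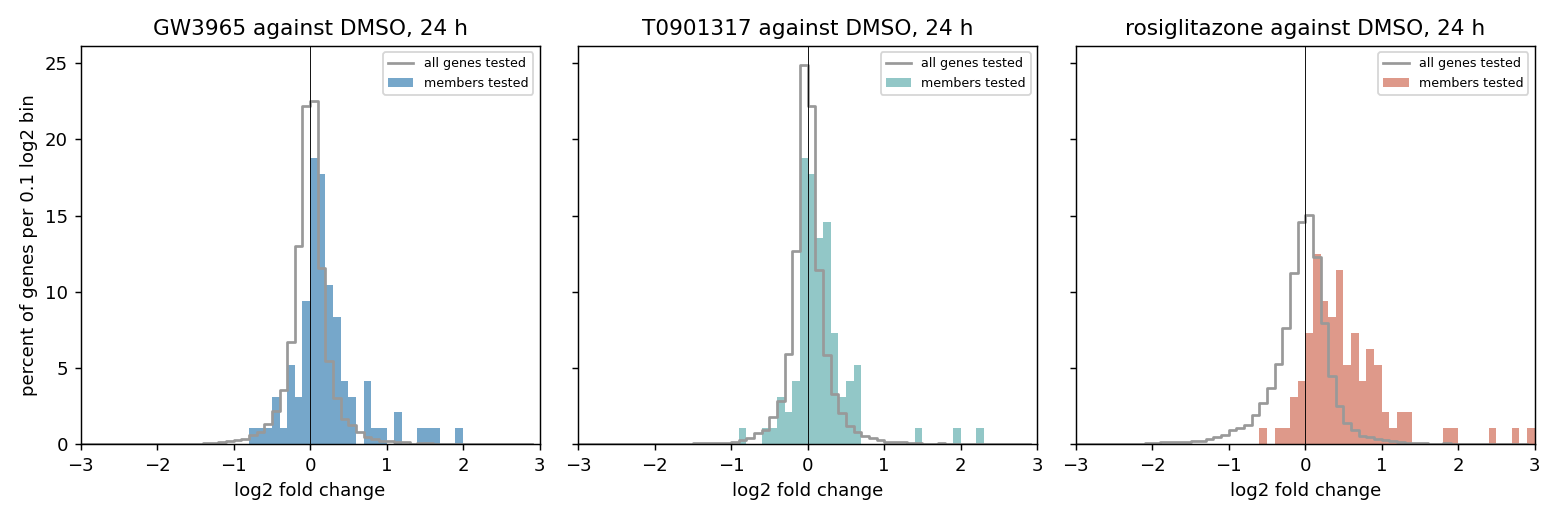
The histograms show the log2 fold change at 24 h against DMSO, one panel per drug, for the tested members and for all genes tested, as a percent of each. With rosiglitazone the members are shifted above 0 (median 0.41), and with GW3965 and T0901317 they lie near 0 (medians 0.12 and 0.11).

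With the LXR agonists at 24 h the members did not stand below DMSO as they did at 48 h. GW3965 raised 4 members (0.992% of all genes rose) and lowered 1 (0.344% fell), and T0901317 raised 3 (0.689%) and lowered 0 (0.0321%). Beside that 0, 1 member was lower with T0901317 at an unadjusted p under 0.05 in edgeR, and DESeq2 also called 0. The median log2 fold changes were 0.12 and 0.11, beside −0.0063 and −0.0039 over all genes. Above 0 were 72 and 66 of the 96, against 48.3% and 48.9% of all genes. The member lowered by GW3965 was AKAP12, at 8.6, 6.29, 6.08 and 7.54 CPM with DMSO and 4.79, 4.43, 3.72 and 3.25 CPM with GW3965 (log2 fold change −0.78 ± 0.16 SE, edgeR adjusted p = 0.0036). Its groups were separate, but the call was lost without DMSO replicate 1 or 4 or without GW3965 replicate 3 or 4, at an edgeR adjusted p of 0.0139 to 0.0214.

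VLDLR and CD55 rose with both agonists at 24 h. VLDLR was at 1.84, 1.95, 2.18 and 2.3 CPM with DMSO, 6.47, 5.63, 6.16 and 6.23 CPM with GW3965, 4.99, 5.99, 6.12 and 5.61 CPM with T0901317, and 7.16, 7.19, 7.53 and 6.88 CPM with rosiglitazone. It thus rose with every drug, by 1.62 ± 0.10, 1.5 ± 0.10 and 1.89 ± 0.10 on the log2 scale (SE, edgeR adjusted p = 2.3e-09, 1.4e-08 and 1.2e-10). CD55 was at 30.9, 33.9, 34.2 and 31.5 CPM with DMSO, 66.2, 48.8, 46.6 and 51.8 CPM with GW3965, 49.5, 50.4, 43.8 and 57.2 CPM with T0901317, and 28.8, 31.2, 32.1 and 35.3 CPM with rosiglitazone. Every agonist library of CD55 was above DMSO, by 0.75 ± 0.08 and 0.66 ± 0.08 (SE, edgeR adjusted p = 3.9e-06 and 4.2e-05), whereas rosiglitazone overlapped DMSO. UNC5B rose with GW3965 by 1.19 ± 0.20 (SE, edgeR adjusted p = 0.00071), and with T0901317 the log2 fold change was 0.39 ± 0.21 (SE, edgeR adjusted p = 0.5). The non-coding C17orf91 (now MIR22HG) rose with GW3965 by 0.75 and RP11-48O20.4 (now LINC01133) with T0901317 by 2.00 (log2 scale), both at low counts. The first call was lost without any 1 of the DMSO libraries or GW3965 replicate 2, 3 or 4, and the second without DMSO replicate 1, 2 or 3 or T0901317 replicate 3.

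Tested against the agonists themselves at 24 h, rosiglitazone was higher than GW3965 in 16 members and lower in 2 (1.46% and 3.23% of all genes), and higher than T0901317 in 19 and lower in 3 (1.44% and 4.04%). FLNC, SEMA7A, GJB6 (connexin 30), RHOB, THBS1, IFFO2, ARL14, PPARD, THRB and FOXQ1 were higher with rosiglitazone than with each agonist. CD55 was lower with rosiglitazone than with each, at a log2 fold change of −0.70 ± 0.08 and −0.61 ± 0.08 (SE, edgeR adjusted p = 4.3e-06 and 2.1e-05), and UNC5B lower than with GW3965. The CD55 call against T0901317 was lost without T0901317 replicate 4 (−0.54) and without rosiglitazone replicate 1 (−0.56), where the log2 fold change came under the cutoff. The UNC5B call was lost without GW3965 replicate 4 or rosiglitazone replicate 2 or 4, and the THRB call against GW3965 without GW3965 replicate 3 or 4 or rosiglitazone replicate 3. The other calls of lower level against T0901317, RP11-48O20.4 and RP11-213H15.3, were lost in 12 and 11 of the 16 fits without 1 library, and leaving out libraries gave 0 to 3 such calls. The 2 LXR agonists, which differ in chemical scaffold and were used at the same dose, differed in 1 member at 24 h (0.289% of all genes higher with T0901317 and 0.0689% lower). That was AKAP12, higher with T0901317 by 0.91 ± 0.16 (SE, edgeR adjusted p = 0.0027), and this call was lost without GW3965 replicate 3 or 4, without T0901317 replicate 1 (edgeR adjusted p of 0.0112 to 0.0178) and in a fit of only these 2 groups. No member was lower with T0901317 than with GW3965 in edgeR or DESeq2, and 11 were at an unadjusted p under 0.05.

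The members' level also differed between the times within DMSO. The 24 h and 48 h libraries come in separate tables, so time and any difference between the preparations cannot be told apart, and the ratios of mean CPM are given without a test. In the DMSO cells the median member was 2.14 times higher at 48 h than at 24 h (97 members with a 24 h value), and 76 were at 1.5 times or more, as were 14.9% of all genes, whose median was 1.02. With GW3965 the median member stood at 1.05 times its 24 h level and with T0901317 at 0.889 times (1.02 and 1.08 for all genes). With rosiglitazone it stood at 3.29 times (0.957 for all genes), and 90 members were at 1.5 times or more, as were 15.2% of all genes. The 48 h means of every group entered the choice of members, so these ratios and counts are not free of it. In the typical member the lower value with an LXR agonist at 48 h was thus set against a DMSO level above that of 24 h.

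**Figure D4:**
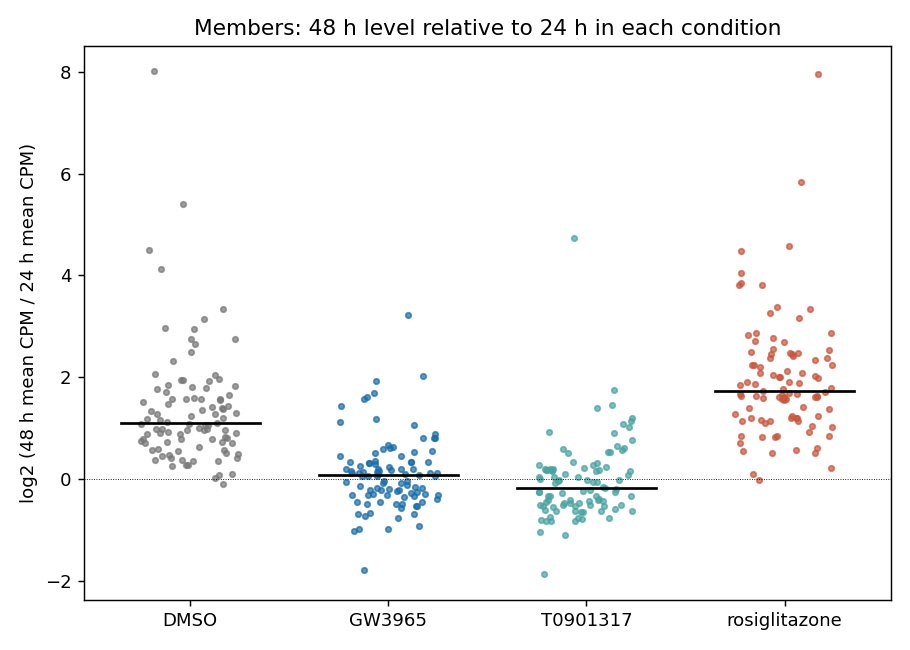
The plot gives, for each treatment, the log2 ratio of the 48 h mean CPM to the 24 h mean CPM, with one point per member and a bar at the median. The medians of the members are 1.09 for DMSO, 0.08 for GW3965, −0.17 for T0901317 and 1.72 for rosiglitazone.

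KLHDC7B had the largest DMSO ratio of 48 h to 24 h, 8.01 on the log2 scale. It had 0, 0, 0 and 1 reads in the 24 h DMSO libraries. Among members with reads in every 24 h DMSO library, UNC5B stood out in this respect. Its DMSO libraries were at 1.26, 1.17, 1 and 1.47 CPM at 24 h, so that the 48 h mean was 42.1 times higher, and it was 56.8 times higher with rosiglitazone but 3.21 times with GW3965 and 2.73 times with T0901317. CD55 was 8.78 times higher at 48 h in DMSO and 14.1 times with rosiglitazone, but 1.24 and 1.43 times with the agonists. VLDLR, JAG1, PHLDA1 and ARHGAP29 were 10.1, 4.15, 3.59 and 3.25 times higher in DMSO. A few members had nearly the same DMSO mean at both times, among them EMP1 (1.06 times) and DOT1L (1.02 times), and for these the agonist means themselves were lower at 48 h than at 24 h. EMP1, an epithelial membrane protein, was at 45.2, 38.4, 36.1 and 45.3 CPM with DMSO at 24 h and 41.9, 39.1, 47.5 and 46.1 CPM at 48 h. With GW3965 it went from 56.9, 51.5, 45.4 and 45 CPM to 23.4, 23.8, 26 and 25.4 CPM.

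In 14 members all GW3965 libraries were above DMSO at 24 h and all below it at 48 h (1.29% of all genes), counting FGF21 with 1 to 6 reads per GW3965 library and none in DMSO at 24 h, and in 17 members the same held for T0901317 (1.54%). These included CD55, VLDLR and SHH with both agonists, JAG1, UNC5B and THBS1 with GW3965, and EMP1 and IRAK2, a kinase of Toll-like receptor signalling, with T0901317. The choice of members fixes the 48 h side of these counts in large part, so only the 24 h side is free of it. At 24 h 70 members had a group mean of 2 CPM or more. All GW3965 libraries lay above DMSO in 12 of these (4.17% of 14677 such genes) and all T0901317 libraries in 15 (4.89%). The difference between the times was not tested.

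In all, 11 members are PKD1 (polycystin 1), its pseudogenes PKD1P1 to PKD1P6 and 4 genes of the separate NPIP family, on chromosome 16, and their counts may hold the same reads. Over the 48 h libraries their log2 CPM correlated with that of PKD1 at r = 0.992 to 0.9996 across 16 libraries. The 48 h values chose these genes for 1 pattern over the groups, so the choice fixes this r in large part. Across the 16 libraries of 24 h, which the choice did not use, r was 0.802 (NPIPP1) to 0.970 (PKD1P5). Both ranges describe shared reads or shared level and not independent genes. PKD1 was at 1016, 964, 944 and 1080.2 CPM with DMSO, 599, 505, 644 and 476 CPM with GW3965, 371, 305, 303 and 440 CPM with T0901317, and 1470, 1677, 1684 and 1297 CPM with rosiglitazone at 48 h. Together the 11 took 0.853 to 0.973% of all counts with DMSO, 0.433 to 0.597% with GW3965, 0.259 to 0.391% with T0901317 and 1.20 to 1.60% with rosiglitazone. At 24 h the group means were 0.441%, 0.450%, 0.427% and 0.443%, with GW3965 replicate 1 well below the rest of its group (0.257%, the highest of the group 0.558%), and 0 of the 11 were called with any drug by edgeR or DESeq2, with 0 at an unadjusted p under 0.05 in edgeR. Without these copies 85 members were tested at 24 h, with the same number of calls and median log2 fold changes of 0.17, 0.17 and 0.45 for GW3965, T0901317 and rosiglitazone. Other members that overlap or resemble each other were HK2 and HK2P1, AQP7P3 and AQP7P4, PHLDA1 and RP11-290L1.3, VLDLR and RP11-125B21.2, and RDH10 and RP11-434I12.2. Strand use in the counting was not given in the sources used here, so reads of a gene and its antisense partner cannot be told apart.

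**Figure D5:**
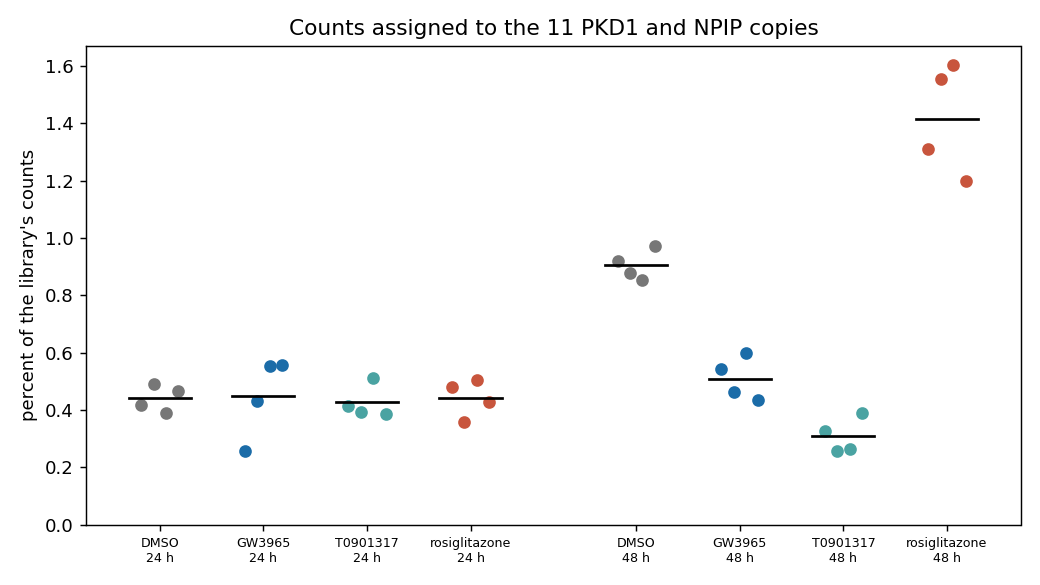
The points give the percent of all counted reads that the 11 PKD1 and NPIP copies took in each library, by group at 24 h and 48 h, with the group mean. At 24 h the 4 groups overlap, with GW3965 from 0.257% to 0.558% and its replicate 1 the lowest of all libraries, and at 48 h they lie in separate ranges, from 0.259% with T0901317 to 1.60% with rosiglitazone.

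The lists that contain members also hold other genes, and the counts given here leave out the members, whose 48 h values the choice fixed. FGF21 and VLDLR are targets of the integrated stress response, the ATF4 programme that answers amino acid lack and endoplasmic reticulum stress. Of 18 other such genes at the level limit, 12 were at 0.67 times DMSO or less at 48 h with GW3965 and 14 with T0901317 (11.99% and 8.62% of all genes), among them DDIT3, TRIB3, ASNS and SESN2, and 0 were at 1.5 times or more with rosiglitazone (4.01% of all genes). At 24 h, 10 of 19 tested genes of this list, VLDLR included, rose with GW3965 and 10 with T0901317, CHAC1 by 2.53 and 2.40 and ASNS by 1.59 and 1.61 on the log2 scale. Rosiglitazone raised 1 of them, VLDLR, and lowered 3 (DDIT4, GDF15 and CHAC1).

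Of 15 adhesion genes and keratins other than the members LAMA3, LAMB3 and KRT80, 6 were at 0.67 times DMSO or less with GW3965 and 3 with T0901317 at 48 h, and 2 were at 1.5 times or more with rosiglitazone. At 24 h rosiglitazone raised 2 of the 18 listed genes tested (ITGA3 and ITGA6) and lowered 2 (TNS4 and KRT17). Of 13 NRF2 and antioxidant genes other than the members OSGIN1, SRXN1 and TXNRD1, 0 were at 0.67 times DMSO or less with GW3965 or T0901317 at 48 h. At 1.5 times or more were 6 with GW3965 and 7 with T0901317 (9.32% and 10.02% of all genes), and 3 with rosiglitazone. At 24 h rosiglitazone raised HMOX1 by 2.54 and AKR1B10 by 0.91 and lowered 3 of the AKR1C enzymes. PHLDA1 was the only one of 15 MAPK response genes outside the omitted families to be a member, and HK2 the only one of 14 hypoxia and glycolysis genes. FGF21 was likewise the only one of 26 PPARG target and lipid genes, and 13 of the other 25 were at 1.5 times or more with rosiglitazone.

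Membership depends on limits that cut through a continuum. Just inside the limit for GW3965 were AC139256.1 (0.67), ABTB2 (0.668) and PPARD (0.663), and just outside it AQP3 (0.674), METTL1 (0.678) and LYST (0.698). For T0901317 MOBKL2C (0.662), ST3GAL6 (0.654) and AQP7P3 (0.645) were inside and GADD45B (0.678), GK (0.688) and ABLIM3 (0.689) outside. For rosiglitazone AC138969.4 (1.51), RP11-452K12.6 (1.52) and CCRN4L (1.52) were inside and AEN (1.495), PIM3 (1.49) and PTPN13 (1.49) outside. AQP7P4, PHLDB2 and RP5-907D15.2 had the lowest top means inside the level limit, 2.06, 2.08 and 2.13 CPM, and RP11-719K4.5, AC007365.3 and RDH12 were outside it at 1.95, 1.92 and 1.86 CPM. The 48 h rosiglitazone libraries were unequal over the members: replicate 3 was the highest of the 4 in 75 members and replicate 1 the lowest in 69, and the same over all genes is not given here. Without replicate 3 the same limits gave 72 genes, 70 of them members, and without replicate 1 they gave 116, including 97 of the members. The 48 h DMSO libraries were unequal too. DMSO replicate 2 was the lowest of its group in 67 members (24.1% of all genes) and DMSO replicate 3 the highest in 53 (33.8%). Without DMSO replicate 2 the limits gave 94 genes and without DMSO replicate 3 they gave 98, each including 88 of the members.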

How the data were processed

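HT29 RNA was sequenced as paired-end Nextera mRNA libraries. The authors deposited whole-number read counts per Ensembl gene, in one table for 24 h and one for 48 h. Their processing notes name TopHat, Cufflinks and hg19, and the counter and strand setting are not given in the sources used. The 34 ChIP-seq peak files were not used. Groups were taken from the labels. Total counts were 21044798 to 51332656 per library at 24 h and 32312041 to 50938082 at 48 h, so precision is set by counting error in members of low level and by the replicate spread in the rest.

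CPM was computed from the deposited counts without a further factor. The 98 members and the gene lists were chosen with earlier results of these data known, and 48 h values were not tested. At 24 h all 16 libraries entered a single edgeR 4.0.16 quasi-likelihood fit (R 4.3.3) with TMM factors and filterByExpr, with Benjamini-Hochberg adjustment over 21781 genes, and a call needed a fold change of 1.5 at an adjusted p below 0.01. The test was checked on simulated counts. Named genes were the 20 members with the largest weakest change over the 3 drugs at 48 h, at most 12 called members per drug at 24 h, members on a gene list, those at each limit, and drug targets; further members were named for their role after their values were seen. Alternatives were DESeq2 1.42.0, its size factors in edgeR, library size alone, no filter, fits of only the compared groups, a replicate block, other thresholds and leaving out each library; the count without the PKD1 and NPIP copies was chosen after seeing the data. Replicate numbers were not taken to pair the samples. The comparison with binding sites was not run, since the peaks are in hg19 and the gene coordinates used here in GRCh38. Promoter letters come from RefSeq GRCh38.p14. Python 3.11.15, pandas 2.3.3, numpy 2.4.6 and matplotlib 3.10.9 were used.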

Additional observations from a re-analysis of the deposited data

Results flagged for a closer look

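Over all members, 756 groups of 4 libraries had a mean of at least 10 reads, and in 42 of them (5.56%) 1 library stood apart by Dixon's ratio (over 0.829), where chance gives about 1 of 20 groups. Values are in CPM. In DMSO at 48 h these were GJB6 in replicate 1 (4.28, the others 3.34 to 3.499), KLHDC7B in replicate 3 (2.62, the others 1.49 to 1.66), and GEM and RASSF6 in replicate 1, both below the others (1.81 and 17.4). In DMSO at 24 h THBS1 was low in replicate 3 (29.3, the others 32.9 to 33.4), and DCBLD2 was high in replicate 1 (198) and AC139256.1 in replicate 4 (1.64). In rosiglitazone ARL14 was low in replicate 1 at 48 h (29.5, the others 36.7 to 37.2), RP11-452K12.7 was high in replicate 2 at 48 h (3.27), and IRAK2 was high in replicate 3 at 24 h (14.6).

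With GW3965 at 48 h, RP11-452K12.7 and OSGIN1 were high in replicate 1 (1.57 and 24.1), AQP7P4 (1.26, the others 0.367 to 0.404) and ZNF962P (0.684) were high and RP11-48O20.4 (1.67) and BCL3 (26.9) low in replicate 2, ZNF355P was low in replicate 3 (0.389) and HK2 high in replicate 4 (36.2). With GW3965 at 24 h, RASSF6 (12.4, the others 8.71 to 9.16) and ST3GAL6 (4.24) were high and ITPKA (3.42) low in replicate 1, THRB (2.94, the others 2.04 to 2.19) and AQP7P3 (0.870) were high in replicate 2, and AC139256.1 was high in replicate 4 (1.29).

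With T0901317 at 48 h, AKAP12 was low (3.81, the others 4.71 to 4.78) and AQP7P3 high (1.26) in replicate 1, and in replicate 4 GEM was high (1.16) and RP11-460N11.2 (1.69) and SNORA71C (0.570) low. With T0901317 at 24 h, 6 members stood out in replicate 4, all high: SEMA7A (2.04, the others 1.73 to 1.76), ARL14 (2.73), C6orf141 (19.9), AQP7P4 (0.972), RCAN1 (5.18) and AQP7P3 (1.19). A further 6 stood out in replicate 3, where PKD1P6 (253), NPIPP1 (100.2), NPIP (436), C17orf91 (2.23) and AC139256.1 (1.48) were high and TXNRD1 was low (280, the others 339 to 349). SRXN1 was low in replicate 2 (57.9).

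For the members below, every library of an LXR agonist lay above every DMSO library at 24 h and below every DMSO library at 48 h. The difference between the times was not tested. FGF21 was among them with GW3965 but has no ratio, since its 24 h DMSO libraries held no read and its GW3965 libraries 5, 1, 6 and 3 reads. With GW3965 the 24 h ratio to the DMSO mean was 2.97 for VLDLR, 2.18 for UNC5B, 1.64 for CD55, 1.63 for GJB6, 1.63 for C17orf91, 1.32 for JAG1, 1.31 for AGPAT9, 1.25 for C6orf141, 1.24 for SHH, 1.21 for FAM59A, 1.17 for THBS1, 1.12 for RP11-290L1.3 and 1.11 for PHLDA1. With T0901317 it was 4.72 for RP11-125B21.2, 3.90 for RP11-48O20.4, 2.75 for VLDLR, 1.54 for CD55, 1.41 for EMP1, 1.41 for SHH, 1.35 for ITPKA, 1.28 for IRAK2, 1.27 for ST3GAL6, 1.26 for C17orf91, 1.24 for C6orf141, 1.17 for FAM59A, 1.16 for RP11-290L1.3, 1.16 for MOBKL2C, 1.12 for C6orf132, 1.10 for PHLDA1 and 1.09 for RP1-27K12.4. The 24 h and 48 h libraries come from separate tables, so the time and the preparation cannot be told apart.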

How the results depend on the processing

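No alternative turned the direction of a call against DMSO among the genes checked 1 by 1, and DESeq2 and the absence of a filter left each count of called members within 1.5 times. With a fold change of 2 the members called higher at 24 h were 2 with GW3965 and 11 with rosiglitazone, 8 against GW3965, 6 against T0901317 and 0 for T0901317 against GW3965, and 0 were lower with GW3965 or with rosiglitazone against GW3965. At an adjusted p under 0.05 without a fold limit they were 14, 9 and 46 with GW3965, T0901317 and rosiglitazone (2.86%, 2.20% and 9.54% of all genes). Rosiglitazone was then higher than GW3965 in 41 members and lower in 5 (8.37% and 9.85% of all genes), and higher than T0901317 in 39 (10.3%). T0901317 was higher than GW3965 in 3 and lower in 1 (1.28% and 0.455%). The shares of all genes at a fold change of 2 are not given here. With only the 2 groups compared in the fit, 1 was lower for rosiglitazone against GW3965 and 0 higher for T0901317 against GW3965. Of the 3 lower for rosiglitazone against T0901317, DESeq2 size factors in edgeR left 1 and the replicate block left 1. Scaling by library size alone moved the rosiglitazone median to 0.31 and that of all genes from −0.02 to −0.11. Without the PKD1 and NPIP copies the T0901317 median was 0.17 and that of rosiglitazone against GW3965 0.39. TMM scaling gave 154 members, 92 of them shared, and limits of 0.5 and 2 gave 18.

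Leaving out each library in turn gave 3 to 4 higher and 0 to 1 lower with GW3965 (median 0.092 to 0.24), 2 to 5 higher with T0901317 (0.047 to 0.14) and 22 to 28 higher with rosiglitazone (0.37 to 0.46). It gave 14 to 16 higher and 1 to 2 lower against GW3965, 17 to 19 higher and 0 to 3 lower against T0901317, 0 to 1 higher and 0 to 1 lower for T0901317 against GW3965 (median −0.11 to 0.023, against −0.06 with all libraries, so that its sign turned), and 72 to 116 members. Same-numbered replicates correlated at −0.231 to 0.297 in their deviations at 24 h, 4 of 24 pairs over 0.1, and 8 of 16 libraries matched their own number best. Replicate 3 of the drug groups correlated at 0.121 to 0.297. These values do not settle whether the numbers pair the samples. The main fit took them as unpaired, and the replicate block changed no other member count by over 1.5 times. Depth limits members such as FGF21, with no reads in 24 h DMSO.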
